A study of Homo sapiens with 6 samples.

Results

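Genes of G1/S entry and DNA replication were followed in cells labelled HCC1937, a human cell line of triple-negative breast cancer, the class defined by the lack of both hormone receptors and of amplified HER2. The 48 genes are a list of symbols defined by function, whose rule uses no measured value, among 78932 gene identifiers in the deposited count table. Cells labelled docetaxel had received 8 nM of the drug for 24 h (3 libraries), and the cells labelled con are the control (3 libraries). Docetaxel is a taxane that stabilises microtubules, and what the control cells received is not given in the sources used here. The RNA was poly(A)-enriched total RNA of the same cell line in both groups. The labels call the 3 libraries of a group biological replicates without saying whether they came from separate cultures, and the p-values below refer to the spread among these libraries, which may be technical.

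Entry into S phase is driven by E2F transcription factors, which are released from the retinoblastoma protein when cyclin-dependent kinases phosphorylate it. E2F activity raises the transcription of cyclin E, of enzymes that make deoxynucleotides and of most proteins of the replication fork. In G1 the origin recognition complex, CDC6 and CDT1 load the MCM2-7 helicase onto DNA. In S phase CDC45 and the GINS complex join that helicase with the help of MCM10, and the polymerases, the clamp PCNA and its loader RFC copy the strands. Proliferating cancer cells express these genes strongly, and arrest in G1 usually lowers them together.

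Libraries held 38622062 to 39181848 counts with docetaxel and 39033097 to 41675186 in control. A count of 0 thus allows up to 0.0720 to 0.0777 counts per 1 M counts in a library (CPM), before TMM scaling. This covers counting error only, and the CPM given elsewhere are TMM-scaled. The epithelial keratins KRT7, KRT8 and KRT18 were abundant, with KRT8 at 2127 CPM with docetaxel and 1812 CPM in control. EPCAM and CDH1, which most epithelial lines express, were at 0.0778 and 0.738 CPM with docetaxel and at 0.0554 and 0.645 CPM in control, and the cell line label was not checked further. The summed level of 10 epithelial markers was 3312 to 3430 CPM with docetaxel and 2782 to 2914 CPM in control. That of 8 mesenchymal markers was 507.3 to 519.1 CPM with docetaxel and 517.5 to 525.9 CPM in control, and that of 5 immune and endothelial markers 2.39 to 3.08 CPM with docetaxel and 1.73 to 2.47 CPM in control. Of the epithelial markers KRT7, KRT8, KRT17 and KRT18 were called higher, and EPCAM, KRT5, KRT14 and KRT19 had too few reads to test, as did 3 mesenchymal and 3 immune and endothelial markers. No other marker was called, none was at 0 in all 6 libraries, and the part of these differences in the results was not tested.

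The promoters of these genes carried E2F-type letters far more often than promoters at large, in windows not matched for GC content. A window of 250 bases before the transcription start was taken from RefSeq (GRCh38.p14) and searched on both strands for TTTCCCGC, TTTGGCGC, TTTCGCGC and TTTGCCGC, where matches on opposite strands may overlap. The window was matched for 41 of the 48 genes, and 15 of these (36.6%) held a match, against 979 of all 35116 promoters (2.79%). The letters CCAAT, a frequent element of cell cycle promoters, were in 24 of 41 (58.5%), against 32.0% of all promoters. The letters TTTGAA were in 2 of 41 (4.88%), against 13.3%. The part of base composition in these shares was not tested. For members repeated rows of a gene were dropped, while for all promoters they were kept. The 3 promoters with most E2F-type matches are shown to let the element be seen in its setting, and that of MCM10 because its transcript fell furthest. They lie at chr2:135876444-135876693 (minus strand), chr7:100101398-100101647 (minus strand), chr20:33686386-33686635 (minus strand) and chr10:13161308-13161557 (plus strand). Capitals mark the E2F-type letters, read 5′ to 3′ on the gene's strand.
MCM6: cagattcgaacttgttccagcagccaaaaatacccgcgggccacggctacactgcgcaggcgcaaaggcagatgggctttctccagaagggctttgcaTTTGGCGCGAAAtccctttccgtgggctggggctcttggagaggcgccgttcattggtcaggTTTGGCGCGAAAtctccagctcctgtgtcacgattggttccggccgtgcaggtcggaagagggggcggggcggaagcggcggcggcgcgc
MCM7: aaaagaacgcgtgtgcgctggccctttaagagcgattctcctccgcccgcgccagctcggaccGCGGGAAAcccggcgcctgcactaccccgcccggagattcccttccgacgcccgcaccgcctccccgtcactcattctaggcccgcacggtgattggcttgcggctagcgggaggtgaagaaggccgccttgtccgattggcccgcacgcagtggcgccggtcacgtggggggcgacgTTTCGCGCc
E2F1: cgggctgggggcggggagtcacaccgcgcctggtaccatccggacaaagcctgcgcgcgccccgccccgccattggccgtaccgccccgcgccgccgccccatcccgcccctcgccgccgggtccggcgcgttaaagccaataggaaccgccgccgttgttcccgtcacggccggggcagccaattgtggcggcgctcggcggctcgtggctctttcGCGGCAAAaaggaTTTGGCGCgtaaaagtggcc
MCM10: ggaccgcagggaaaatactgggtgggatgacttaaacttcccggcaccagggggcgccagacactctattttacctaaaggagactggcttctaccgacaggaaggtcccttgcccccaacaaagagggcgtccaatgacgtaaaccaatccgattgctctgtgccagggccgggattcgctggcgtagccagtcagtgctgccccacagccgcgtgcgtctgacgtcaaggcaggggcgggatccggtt

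The MCM6 window held 4 matches, which are 2 copies of a stretch where TTTGGCGC overlaps the reverse complement of TTTCGCGC. The MCM7 and E2F1 windows held 2 matches each. The MCM10 window had none, which says only that these letters are not in it. Of the members that rose with docetaxel, 3 of 8 matched promoters held the letters, against 2 of 5 of those that fell and 10 of 28 of the others. These matches are a description of sequence and were not tested as sites.

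After 24 h of docetaxel the 48 transcripts stayed close to their control levels and did not move in 1 direction. All 48 had enough reads to be tested across the 18040 genes kept, and by edgeR's quasi-likelihood test 9 were higher, 5 were lower and 34 did not pass an adjusted p of 0.05. The share called was 29.2% of members (18.8% higher and 10.4% lower), against 17.0% of all tested genes (9.14% higher and 7.82% lower). These shares were not matched for expression level, and the members had a median of 78.4 CPM. With the GC and length offsets described further on, the shares called were 4.17% of members and 3.56% of all tested genes. With library-size scaling 7 members were higher and 6 lower, beside 1096 and 1866 of all tested genes. On the log2 scale the members' median change, docetaxel over control, was 0.01, as it was for all tested genes. The largest fall was MCM10, to 0.742 of control, and the largest rise was TK1, 1.22-fold. Only MCM10, RFC3 and E2F7 differed by more than 1.25-fold in either direction. In bulk RNA, fewer cells in S phase and less RNA per cell cannot be told apart.

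Docetaxel and control libraries did not overlap for 22 of 48 members (45.8%), against 32.0% of tested genes, again not matched for expression level. The 3 libraries of a group lay close together, with a median coefficient of variation of 3.14% with docetaxel and 4.28% in control. For 31 of the 34 members not called, the 95% confidence interval lay within 1.25-fold of no change in both directions. The exceptions were E2F8 and CCNE2, which had few reads, and GINS4, with a log2 fold change of -0.23. All 34 lay within 1.5-fold. Without control replicate 2, 5 members were higher and 3 lower, and without docetaxel replicate 3, 6 were higher and 3 lower. Without docetaxel replicate 2, 8 were higher and 3 lower, and the same counts held without control replicate 3.

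**Figure D1:**
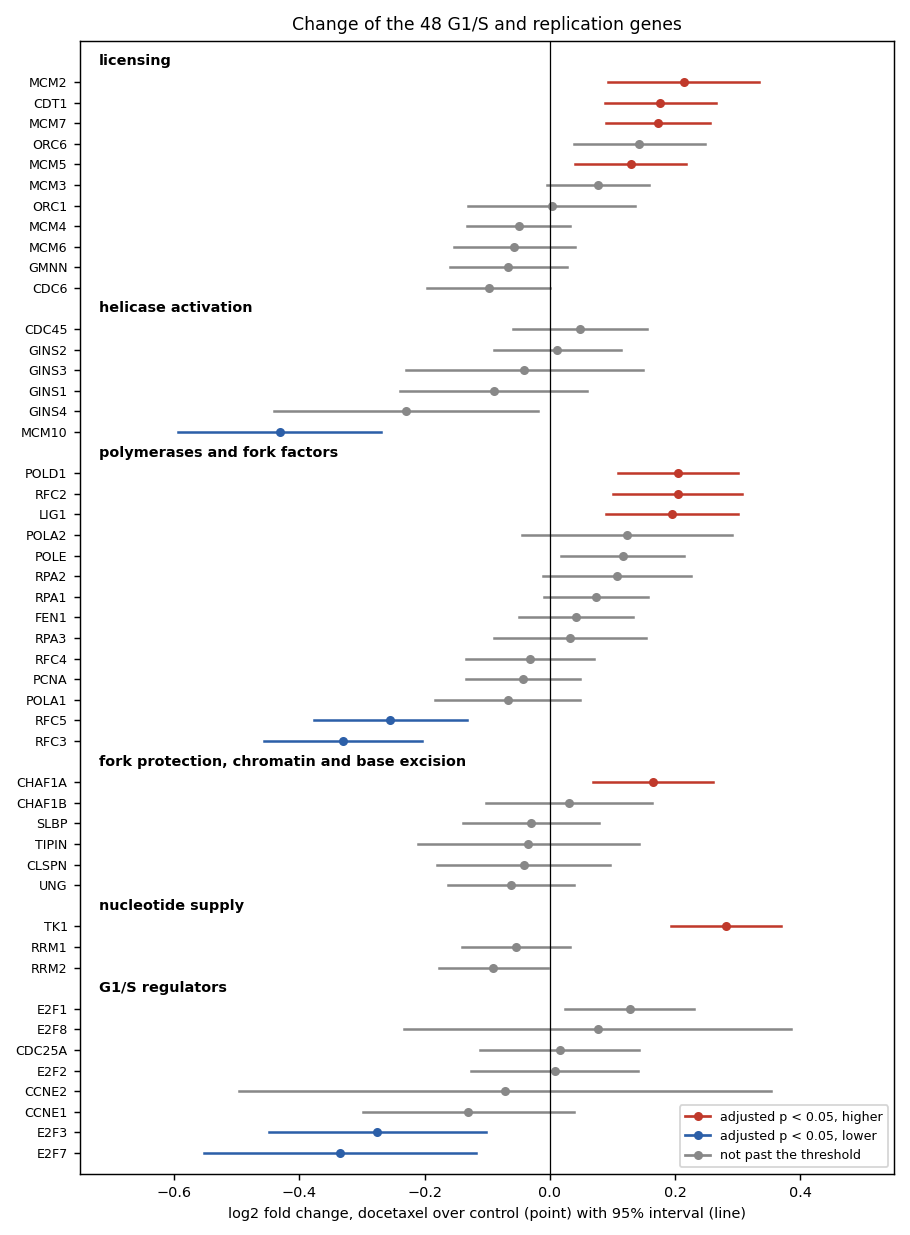
Log2 fold change, docetaxel over control, of each of the 48 members (point) with its 95% confidence interval (line), grouped by role and ordered by size within a role; red and blue mark an edgeR adjusted p under 0.05. The points run from -0.43 for MCM10 to 0.28 for TK1, and 34 of 48 are grey.

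Of the 11 licensing genes 4 were called higher and 0 lower, against 9.14% and 7.82% of all tested genes, with a median log2 fold change of 0.08. With the GC and length offsets described further on, 0 of the 11 were called and the median was 0.01. The MCM2-7 hexamer is the ring that becomes the replicative helicase, and 3 of its subunits rose. MCM7 (chr7:100092728-100101940) had 504.8, 519.7 and 509.1 CPM with docetaxel, against 477.5, 427.1 and 456.5 CPM in control. All 3 docetaxel libraries were above all 3 control libraries, at 1.13-fold (0.17 ± 0.04 in log2, SE, edgeR adjusted p = 0.00314). MCM2 (chr3:127598223-127622436) had 59.3, 58.4 and 61.1 CPM with docetaxel, against 53.9, 47.8 and 52.6 CPM in control. It rose 1.16-fold without overlap between the groups (edgeR adjusted p = 0.0105). The call of MCM2 was lost without docetaxel replicate 3 (0.0728) or control replicate 2 (0.0879).

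MCM5 (chr22:35400063-35425430) had 223.9, 235.6 and 247.7 CPM with docetaxel, against 221.8, 209.5 and 215.4 CPM in control. Its lowest docetaxel library was just above its highest control library. The rise was 1.09-fold (edgeR adjusted p = 0.0359), and it was not called without docetaxel replicate 2 or 3 or control replicate 2 or 3 (0.0995, 0.273, 0.132 and 0.11) or with RLE or library-size scaling (0.0501 and 0.143). It also missed the threshold with no filter on low counts (0.0901) and with the replicate number as a block (0.0854).

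The other 3 subunits did not pass. MCM3 had 311.4, 330.8 and 318.1 CPM with docetaxel, against 308.1, 298.8 and 303.4 CPM in control (log2 fold change 0.08, edgeR adjusted p = 0.203). MCM4 had 286.5, 272.4 and 285.5 CPM with docetaxel and 284.1, 298.7 and 290.9 CPM in control, and these overlapped. MCM6 had 101.6, 109.8 and 110.0 CPM with docetaxel and 110.8, 112.8 and 110.7 CPM in control. MCM6 was thus slightly below control in every library, with a 95% interval of -0.15 to 0.04 on the log2 scale.

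CDT1, the loading factor that delivers the helicase to origins (chr16:88803213-88809258), had 184.1, 186.6 and 184.6 CPM with docetaxel, against 163.6, 155.6 and 172.2 CPM in control. It rose 1.13-fold with no overlap between the groups (edgeR adjusted p = 0.00461). Geminin (GMNN), the inhibitor that binds CDT1, did not pass, with a log2 ratio of -0.07 ± 0.05 (SE, edgeR adjusted p = 0.376). CDC6, the ATPase that works with CDT1, was at -0.10 (0.18). Of the origin recognition subunits, ORC1 was level (log2 fold change 0.00, 95% interval -0.13 to 0.14). ORC6 was above control in every library at a log2 fold change of 0.14 and just missed the threshold (edgeR adjusted p = 0.0524). It passed with upper-quartile scaling (0.0312) and with a filter of 1 CPM in 3 libraries (0.0407).

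Per kilobase of the deposited gene length, the hexamer's transcripts were unequal. With docetaxel MCM7 was at 103.1 ± 1.5 and MCM3 at 87.8 ± 2.7 CPM per kb (SD, n = 3), while MCM2 was lowest at 12.2 ± 0.3 CPM per kb. In control these were 91.5 ± 5.1, 83.3 ± 1.3 and 10.5 ± 0.7 CPM per kb (SD, n = 3). MCM5, MCM4 and MCM6 lay between 25.9 and 32.4 CPM per kb with docetaxel and between 27.0 and 29.7 CPM per kb in control. MCM5 was the highest and MCM6 the lowest of these 3 in both groups, and MCM4 and MCM5 were within 1 SD of each other in control. With the length of the longest coding transcript in place of the deposited length, MCM4 and MCM5 stood at 67.3 and 66.7 CPM per kb with docetaxel and 69.6 and 61.0 CPM per kb in control, well above MCM6 at 28.7 and 29.8. MCM7 stayed highest and MCM2 lowest on both lengths.

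**Figure D2:**
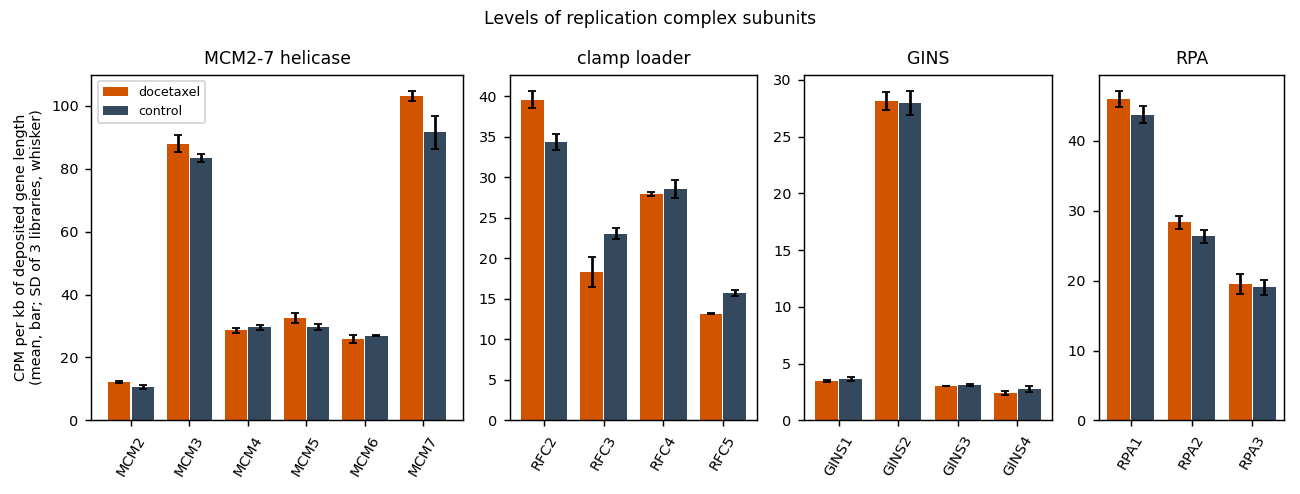
Level of each member subunit of 4 replication complexes (RFC1 is not a member) in CPM per kb of deposited gene length, docetaxel left of control, bars for means and whiskers for the SD of 3 libraries; each panel has its own scale from 0. MCM7 and MCM3 stand above the other helicase subunits, GINS2 above the other GINS subunits, and RFC2 is higher while RFC3 and RFC5 are lower with docetaxel.

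Among the genes that turn the loaded ring into an active helicase, 1 of 6 was called and it fell. Of all tested genes 17.0% were called, 9.14% higher and 7.82% lower. MCM10 (chr10:13161554-13211104), a scaffold that activates the helicase at origin firing, had 976, 849 and 888 reads with docetaxel, against 1197, 1482 and 1240 reads in control. These were 25.4, 22.3 and 23.0 CPM with docetaxel, against 30.4, 34.8 and 30.1 CPM in control. Every docetaxel library was below every control library, with a log2 ratio of -0.43 ± 0.08 (SE, 95% interval -0.59 to -0.27, edgeR adjusted p = 0.000295). MCM10 passed in 16 of 16 alternative fits, where its log2 fold change ran from -0.51 to -0.34 and its adjusted p was at most 0.0108. No other member kept its call in all of them.

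The partners of MCM10 in the same step did not pass. CDC45, which joins the ring as GINS does, had a log2 fold change of 0.05 (95% interval -0.06 to 0.15). The number of MCM10 reads per CDC45 read was 0.320, 0.272 and 0.303 with docetaxel, against 0.379, 0.467 and 0.402 in control. This pair was chosen after its values were seen, and its GC contents differ, at 43.3% for MCM10 and 51.4% for CDC45. GINS2 had 89.7, 88.7 and 93.5 CPM with docetaxel and 90.7, 86.1 and 92.9 CPM in control, a log2 fold change of 0.01. GINS1 and GINS3 were at -0.09 and -0.04. GINS4 was at -0.23 with an interval of -0.44 to -0.02 (edgeR adjusted p = 0.133), from 12.1, 13.0 and 13.9 CPM with docetaxel and 16.5, 15.6 and 13.6 CPM in control.

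Per kilobase, GINS2 was at 28.2 ± 0.8 CPM with docetaxel and 27.9 ± 1.1 CPM in control (SD, n = 3 each). The other 3 subunits of that tetramer were between 2.38 and 3.45 CPM per kb with docetaxel and between 2.79 and 3.67 in control. With the coding transcript lengths GINS2 was still highest, at 33.9 CPM per kb with docetaxel, and the others were between 3.35 and 8.52.

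Of the 14 polymerase and fork genes 3 were called higher and 2 lower, against 9.14% and 7.82% of all tested genes. With the GC and length offsets described further on, 0 were higher and 1 lower. Of the subunits of the RFC clamp loader, which opens PCNA and places it on DNA, RFC2 rose while RFC3 and RFC5 fell. RFC2 (chr7:74231499-74254458) had 88.0, 84.9 and 89.5 CPM with docetaxel, against 73.5, 76.4 and 77.9 CPM in control. It rose 1.15-fold (edgeR adjusted p = 0.00457). RFC3 (chr13:33818049-33966558) had 58.3, 49.0 and 49.7 CPM with docetaxel, against 63.6, 67.1 and 66.6 CPM in control. It fell by 0.33 ± 0.06 on the log2 scale (SE, edgeR adjusted p = 0.000371). RFC5 (chr12:118013588-118033130) had 42.9, 42.9 and 42.6 CPM with docetaxel, against 50.8, 52.5 and 50.1 CPM in control, and fell by 0.25 (edgeR adjusted p = 0.00289).

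For each of these 3 subunits the groups did not overlap. RFC4 was level at a log2 fold change of -0.03 (95% interval -0.13 to 0.07). RFC1, from the second list described further on, was at -0.08 (edgeR adjusted p = 0.346). The number of RFC2 reads per RFC3 read was 1.51, 1.74 and 1.80 with docetaxel, against 1.16, 1.14 and 1.17 in control. RFC2 reads per RFC5 read came to 2.05, 1.98 and 2.10 with docetaxel, against 1.45, 1.46 and 1.56 in control. These ratios were computed after the values were seen and compare genes within a library. There scaling cancels, but a difference in GC content between the genes does not. GC content was 53.6% for RFC2, 39.05% for RFC3 and 44.5% for RFC5. With the offsets RFC5 was still lower (edgeR adjusted p = 0.0408), while RFC2 and RFC3 were not called (0.138 and 0.053).

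Of the 4 polymerase subunits among the members, POLD1, the catalytic subunit of polymerase δ, rose and POLE, POLA1 and POLA2 did not pass. POLD1 (chr19:50384204-50418016) had 124.1, 123.1 and 120.9 CPM with docetaxel, against 107.2, 100.9 and 111.4 CPM in control, a 1.15-fold rise without overlap (edgeR adjusted p = 0.00264). POLE, the catalytic subunit of polymerase ε, was above control in every library at a log2 fold change of 0.12 (edgeR adjusted p = 0.099). POLA1 and POLA2, of the polymerase α that starts each fragment, were at -0.07 and 0.12 (0.491 and 0.356). LIG1, the ligase that joins Okazaki fragments (chr19:48115445-48170603), had 89.6, 89.6 and 94.1 CPM with docetaxel, against 83.9, 75.6 and 79.4 CPM in control. It rose 1.14-fold (edgeR adjusted p = 0.00768) and was not called without docetaxel replicate 3 (0.0714) or control replicate 2 (0.0554).

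PCNA, the sliding clamp, had the highest level per kilobase of the fork genes. It had 148.5, 150.2 and 146.5 CPM with docetaxel and 150.2, 161.4 and 147.1 CPM in control, which overlapped (log2 fold change -0.04, 95% interval -0.13 to 0.05). FEN1, the flap nuclease, was at 0.04. The 3 subunits of RPA, which coats single-stranded DNA, were at 0.07, 0.11 and 0.03 for RPA1, RPA2 and RPA3, with edgeR adjusted p of 0.245, 0.228 and 0.795. RPA1 and RPA2 were above control in every library.

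Of the 6 genes of fork protection, chromatin assembly and base excision 1 was called, against 17.0% of all tested genes, and it was CHAF1A. It encodes the large subunit of chromatin assembly factor CAF-1 (chr19:4402662-4445018) and had 142.4, 137.2 and 133.8 CPM with docetaxel, against 127.2, 115.4 and 126.4 CPM in control. It rose 1.12-fold (edgeR adjusted p = 0.0132) and was not called without docetaxel replicate 1 (0.105), without control replicate 2 (0.0954) or with library-size scaling (0.0581). Its partner CHAF1B was at a log2 fold change of 0.03. SLBP, which binds the stem-loop of histone mRNA, had 80.9, 74.3 and 73.3 CPM with docetaxel and 80.6, 77.4 and 75.3 CPM in control. The fork factors TIPIN and CLSPN and the uracil glycosylase UNG were between -0.06 and -0.03 on the log2 scale.

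Of the 3 genes of nucleotide supply 1 was called, TK1, against 17.0% of all tested genes, and 0 were called with the GC and length offsets. Whether TK1 and the ribonucleotide reductase genes differ was not tested. Their GC contents are 62.8% for TK1, 43.5% for RRM1 and 45.8% for RRM2. TK1 (chr17:78174075-78187233), the S-phase enzyme of thymidine salvage, had 208.8, 210.4 and 196.8 CPM with docetaxel, against 174.3, 163.9 and 168.9 CPM in control. Its rise of 1.22-fold was the largest among the members (log2 fold change 0.28 ± 0.04 SE, edgeR adjusted p = 4.4e-05). RRM1 and RRM2, the subunits of ribonucleotide reductase, were below control in every library, at -0.05 and -0.09 on the log2 scale (edgeR adjusted p of 0.45 and 0.159). RRM2 passed with library-size scaling, at -0.13 (0.0319).

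Of the 8 regulators of G1/S entry, 2 fell and 0 rose, against 7.82% and 9.14% of all tested genes, and 0 were called with the GC and length offsets. E2F7 (chr12:77021247-77065580), a repressor that E2F1 itself induces, had 12.9, 10.6 and 12.3 CPM with docetaxel, against 13.5, 15.3 and 16.3 CPM in control. It fell by 0.33 ± 0.11 on the log2 scale (SE, edgeR adjusted p = 0.0267). E2F3 (chr6:20401906-20493715), an activator, had 47.4, 34.9 and 39.8 CPM with docetaxel, against 46.6, 50.4 and 50.9 CPM in control. Docetaxel replicate 1 lay above control replicate 1, so the groups overlapped, and the fall was 0.28 ± 0.08 (SE, edgeR adjusted p = 0.0256). Without docetaxel replicate 1 the log2 fold change of E2F3 was -0.42 (0.000112). Leaving out docetaxel replicate 2 or 3 or control replicate 2 or 3 ended both calls, with adjusted p of 0.104 to 0.171 for E2F3 and 0.0723 to 0.149 for E2F7. With the replicate number as a block, E2F7 missed the threshold (0.0519).

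E2F1, the activator of highest level per kilobase, had 102.4, 113.5 and 106.1 CPM with docetaxel and 102.8, 93.3 and 98.8 CPM in control. It missed the threshold at a log2 fold change of 0.13 (edgeR adjusted p = 0.0823). E2F2 and E2F8, an activator and a repressor, were at 0.01 and 0.08. CCNE1, which encodes cyclin E1, was slightly below control in every library, at a log2 fold change of -0.13 (edgeR adjusted p = 0.326). CCNE2, its relative, had 137, 90 and 107 reads with docetaxel and 132, 130 and 113 reads in control, with an interval of -0.50 to 0.35. In the annotation 37.0% of the exon bases of CCNE2 overlap INTS8 on the opposite strand, so its count is uncertain. CDC25A, a phosphatase that activates the kinase bound to cyclin E, was at 0.02.

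**Figure D3:**
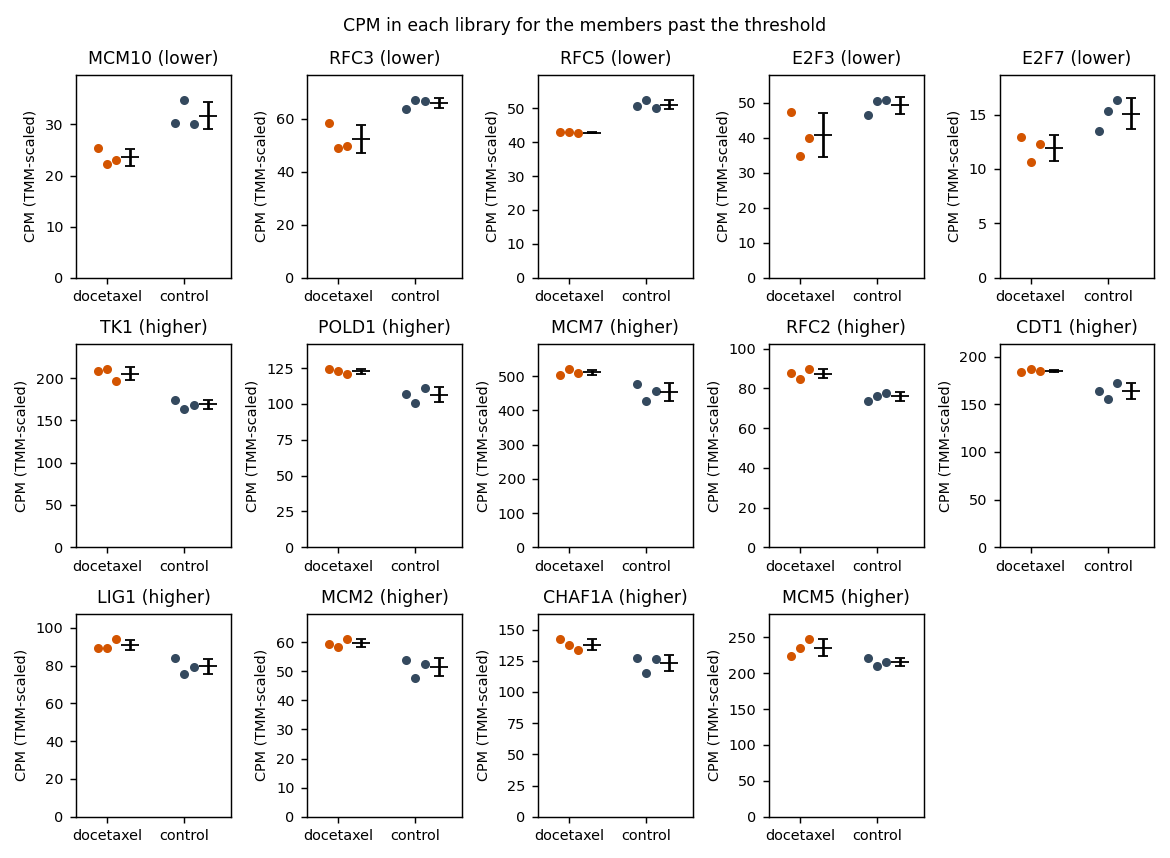
TMM-scaled CPM in each library of the 14 members past the threshold, docetaxel left of control, with the mean and SD of 3 libraries beside the points; each panel has its own axis from 0. The groups do not overlap in 13 panels, and E2F3, at 34.9 to 47.4 CPM with docetaxel and 46.6 to 50.9 CPM in control, is the exception.

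The direction of change among the members followed the base composition of their transcripts. The 9 that rose had a GC content of 53.6% to 65.0% in their longest transcript, the 5 that fell 39.05% to 45.2%, and the 34 others 36.9% to 62.5%. Across the 48 members the log2 fold change and GC content had Spearman's rho = 0.79 and Pearson's r = 0.72, a description over genes that share the same 6 libraries. The same held for all genes. When tested genes were ranked by GC content into 5 equal groups, 17 members fell between 41.3% and 46.2%, where their median log2 fold change was -0.07 and that of all genes -0.08. From 46.2% to 51.9%, the 13 members were at 0.02 and all genes at 0.01. From 51.9% to 58.3%, the 11 members were at 0.13 and all genes at 0.10. The lowest and the highest group held 3 and 4 members, at -0.07 and 0.19, beside -0.19 and 0.18 for all genes.

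Coding stretches of the 2 richest members that rose and the 2 poorest that fell show this difference in letters. Each is 90 bases of exon 2 (GRCh38), chosen because its GC content is the nearest to that of the gene's longest transcript, with G and C in capitals. RFC3 (chr13:33821152-33821241, plus strand) and E2F7 (chr12:77064546-77064635, minus strand) are set above POLD1 (chr19:50398887-50398976, plus strand) and CDT1 (chr16:88804548-88804637, plus strand).
RFC3: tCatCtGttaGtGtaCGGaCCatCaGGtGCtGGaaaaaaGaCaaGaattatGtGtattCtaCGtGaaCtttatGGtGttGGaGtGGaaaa
E2F7: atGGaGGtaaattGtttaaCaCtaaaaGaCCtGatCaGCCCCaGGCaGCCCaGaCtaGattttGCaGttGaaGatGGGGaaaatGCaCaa
POLD1: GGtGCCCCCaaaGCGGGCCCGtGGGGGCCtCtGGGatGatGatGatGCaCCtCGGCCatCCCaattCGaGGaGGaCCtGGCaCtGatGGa
CDT1: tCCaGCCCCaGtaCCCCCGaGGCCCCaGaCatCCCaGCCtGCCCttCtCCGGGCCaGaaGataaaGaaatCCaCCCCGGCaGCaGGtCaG

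The stretches are 38.9% and 43.3% G and C for RFC3 and E2F7, which fell, and 64.4% for both POLD1 and CDT1, which rose. With offsets that take out, library by library, the smooth dependence of counts on GC content and length, 0 members were higher and 2 lower. That share of 4.17% stood beside 3.56% of all tested genes (1.92% higher and 1.64% lower). The 2 were MCM10, at a log2 fold change of -0.34 (edgeR adjusted p = 0.00553), and RFC5, at -0.20 (0.0408). RFC3 was at -0.18 and just missed (0.053). TK1, RFC2 and LIG1 were at 0.10, 0.13 and 0.11 (0.18, 0.138 and 0.218), and MCM7 and CHAF1A at 0.04 and 0.03 (0.695 and 0.815). MCM2 and MCM5 were at 0.07 and 0.01 (0.577 and 0.957), and CDT1 and POLD1 at -0.04 and -0.0008 (0.747 and 0.997). E2F3 and E2F7 were not called at -0.22 and -0.24 (0.126 and 0.221), values no smaller in size than that of RFC5.

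With these offsets the members' median log2 fold change was 0.01, as over all tested genes, and the correlation with GC content was 0.03 (Spearman's rho), as the offsets are built to remove it. Transcript GC content and library preparation were not separated by the design, so whether the trend came from the drug or from the libraries cannot be told apart.

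**Figure D4:**
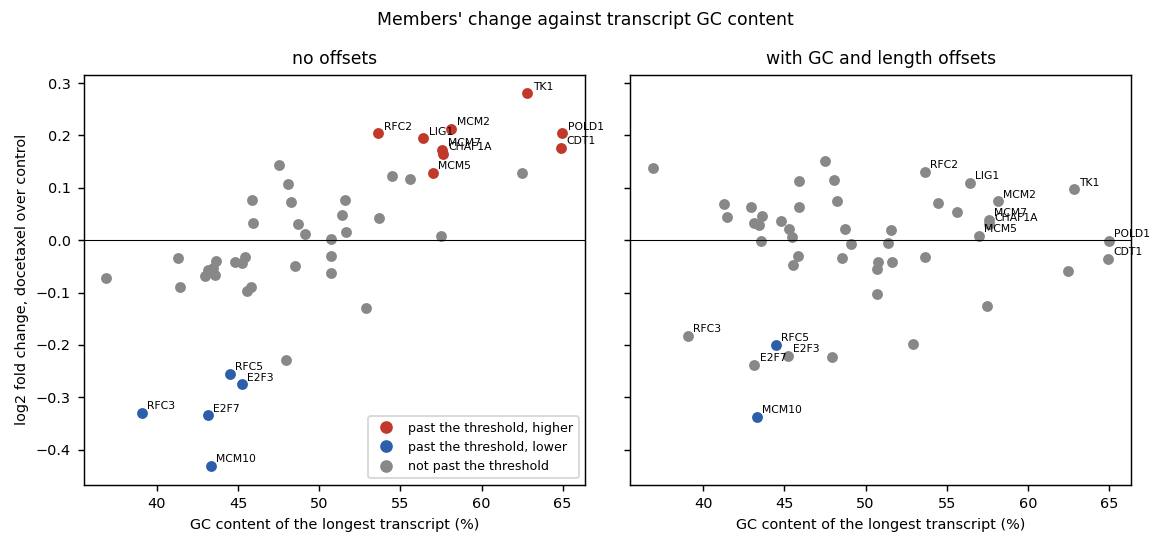
Log2 fold change, docetaxel over control, against the GC content of the longest transcript (%) for the 48 members, without (left) and with (right) GC and length offsets; named genes are the 14 called without offsets. On the left the points climb with scatter, and the members lowest and highest in GC content are CCNE2 (-0.07 at 36.9%) and POLD1 (0.20 at 65.0%). On the right MCM10 and RFC5 are the ones past the threshold.

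The rest of the replication machinery was read from a second list of 48 genes, all tested. Of these 5 rose and 11 fell by edgeR, against 9.14% and 7.82% of tested genes, and their median change was -0.09 on the log2 scale at a median GC content of 43.4%. DUT, which destroys dUTP, had 82.3, 71.8 and 73.0 CPM with docetaxel, against 92.3, 97.2 and 88.6 CPM in control, and fell by 0.29 on the log2 scale (edgeR adjusted p = 0.000382). TOP1, the topoisomerase that relaxes DNA ahead of the fork, had 67.3, 64.3 and 68.3 CPM with docetaxel, against 84.2, 82.0 and 76.9 CPM in control, and fell by 0.28 (0.000373). DSCC1, a subunit of an alternative clamp loader, fell by 0.36 (0.0017), and WDHD1, which tethers polymerase α to the helicase, fell by 0.39 (0.00292).

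CHTF18, another subunit of that alternative loader, had 143.9, 150.8 and 142.7 CPM with docetaxel, against 123.8, 115.0 and 125.9 CPM in control. It rose by 0.26 on the log2 scale (edgeR adjusted p = 0.000184). With the offsets CHTF18 was at 0.06 (0.521) and DSCC1 at -0.25 (0.0541). RECQL4, a helicase of origin firing, rose 1.14-fold (edgeR adjusted p = 0.00298) and was at -0.02 with the offsets (0.886). CHTF18 and RECQL4 have a GC content of 65.1% and 65.5%, and DUT, TOP1, DSCC1 and WDHD1 of 38.1% to 44.2%. With the offsets 3 of the 48 were higher and 2 lower, and 0 of the 5 that rose without them were among the 3. Those 3 were PRIM2, NASP and MCMBP (edgeR adjusted p of 0.0201, 0.0382 and 0.0151), named after their values were seen. DUT was still lower (edgeR adjusted p = 0.00621), while TOP1 and WDHD1 were not called (0.0815 and 0.202).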

How the data were processed

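The 6 libraries were made from poly(A)-enriched RNA and sequenced in paired-end mode (NovaSeq), per the labels. As deposited by the authors, the table holds raw read counts per Ensembl gene and a gene length column. The submitters' processing notes name featureCounts 2.0.1, MultiQC 1.11 and GRCh38. Which aligner, annotation release, strand setting and multi-mapping rule were used is not given in the sources used here, and counts of overlapping genes and of genes with pseudogenes are uncertain. Of the 48 members, 21 share exon bases with another gene of GENCODE release 29.

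Gene symbols, looked up by Ensembl ID, were found for 61481 of 78932 rows, among them all 48 members. Coordinates, strand and GC content came from GENCODE release 29 (GRCh38), and GC content was found for 91.0% of tested genes. Genes were kept by filterByExpr, scaled by TMM and tested with edgeR 4.0.16 (R 4.3.3), by a robust glmQLFit followed by a two-sided glmQLFTest, with Benjamini-Hochberg adjustment over the 18040 genes kept. There was 1 comparison. SEs were derived from the p of the test. CPM are TMM-scaled, and levels per kb divide them by the deposited length.

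The members and lists were chosen with earlier results of these data known, so no list was tested as a whole. Values in each library are given for called members, for the member of highest level per kb in each role, for the MCM2-7 subunits and, of the other replication genes, for up to 6 called with the smallest p. Alternatives were DESeq2 1.42.0, limma-voom (limma 3.58.1), scaling by RLE, by upper quartile or by library size, no filter, a filter of 1 CPM in 3 libraries, a replicate block, GC and length offsets from a loess fit (span 0.5) with and without that block, and leaving out each library. The coding transcript length was added after the data were seen. The test and the offsets were checked on counts simulated with a smooth GC trend or none. The spread set there was below the common coefficient of variation of the data (0.0759), and other settings were not checked. Within groups, library pairs had a Poisson dispersion index of 4.92 to 12.7, so none appeared to be a duplicate.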

Additional observations from a re-analysis of the deposited data

How the results depend on the processing

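Members called higher and lower were 9 and 5. With GC and length offsets they were 0 and 2, and with a replicate block added to the offsets 0 and 1. With the replicate block alone they were 8 and 4, and 1283 genes were higher and 1106 lower over all tested. No pairing is given by the labels, and same-numbered libraries deviated together by a correlation of only 0.00704 to 0.0157, although every library correlated best with its own number. Leaving out 1 library gave 5 to 9 members higher and 3 to 5 lower. Among the other replication genes, 5 were higher and 11 lower, against 3 and 2 with offsets (0 of the 5 among the 3) and 2 and 1 with block and offsets, and without 1 library 5 to 13 were lower. Of the G2/M genes, 2 lower became 0 with offsets, 0 with block and offsets, and 1 to 2 without 1 library. Over all tested genes, 1649 higher and 1410 lower became 347 and 295 with offsets, and 239 and 226 with block and offsets. Library-size scaling gave 1096 higher, and leaving out 1 library 990 to 1397 higher and 740 to 1841 lower. CDT1 and POLD1 changed sign with offsets, to -0.036 and -0.0008, and with block and offsets to -0.0357 and -0.0008. The members' median log2 fold change ran from -0.03 to 0.02 over the 16 alternatives. Beyond offsets, the causes of these shifts were not tested. At this depth with 3 libraries a group, members not called had 95% intervals that reached a median of 0.11 in log2 to either side. The adjusted threshold is stricter than that interval, as ORC6 at 0.14 and E2F1 at 0.13 were not called. Changes of that size and smaller could therefore be missed.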

Other observations

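Genes that peak in G2 and mitosis were counted for orientation beside the replication genes. Of 15 tested, 3 rose and 2 fell by edgeR, against 9.14% and 7.82% of all tested genes, with a median log2 fold change of 0.08. CDC20, the activator of the anaphase-promoting complex, had 279.8, 286.2 and 296.6 CPM with docetaxel, against 254.0, 236.4 and 246.8 CPM in control (1.17-fold, edgeR adjusted p = 0.000271). Of the mitotic kinases, AURKB rose by 0.18 in log2 (0.00488) and PLK1 by 0.15 (0.0131). CDK1, the kinase of mitotic entry, fell by 0.22 on the log2 scale (0.00429), and TOP2A, a topoisomerase that untangles chromosomes, fell by 0.16 (0.00496). With GC and length offsets none of these 5 passed, while CCNB1 and CENPF were higher (0.0131 and 0.0114). Cyclin B1, the product of CCNB1, is the partner of CDK1, and CENPF is a kinetochore protein. Whether these genes and the replication genes differ was not tested. The 5 called genes and CCNB1 and CENPF were named after their values were seen.

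Several replication genes had few reads for a dividing line. RNASEH2A, a subunit of ribonuclease H2, had 2.47 CPM with docetaxel and 2.64 CPM in control, and POLD4, the smallest subunit of polymerase δ, 0.755 CPM with docetaxel and 0.875 CPM in control. CHTF8, of the alternative clamp loader, had 0.365 CPM with docetaxel and 0.468 CPM in control, although CHTF18 had 145.8 and 121.5 CPM. Overlap with other genes was looked up for the members only. Whether it lowered the counts of RNASEH2A, POLD4 and CHTF8 was not tested. In the annotation used for coordinates, POLA2 shares 35.1% of its exon bases with a gene on the same strand, and RRM2 20.2%. These shares refer to exons of that annotation, not to the deposited lengths of 12006 bases for POLA2 and 9153 bases for RRM2. The gene that overlaps POLA2 had 90 reads over all libraries, and no read count was found for the one that overlaps RRM2. Which exons were counted is not given in the sources used here, and how the counting treated shared bases was not tested. All were picked for their low values or their overlap.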
